A study of Mus musculus with 6 samples.

Results

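Glial stress and survival response genes are genes known to rise when the retina is injured. The set was fixed by gene symbol and holds 10 members, Gfap, Edn2, Fgf2, Cebpd, Stat3, Socs3, Lif, Serpina3n, C4b and Lcn2, and all 10 had a row among the 24346 rows of the series. The series holds 6 mouse libraries of polyadenylated RNA, 1 per sample, labelled as brain of embryonic day 17.5. In 3 libraries the embryo has the label DKO, a double knockout for the loci miR-124a-1 and miR-124a-2, which make the neuronal microRNA miR-124a. In the other 3 it is labelled control, with the genotype miR-124a-1+/-, so the control embryos also lack an allele of miR-124a-1 and no wild type is included. The file columns of the DKO libraries carry the letters CKO, which the labels do not explain. The labels do not say how the alleles were made, how many embryos went into a library or whether embryos shared a litter, so the p-values measure the spread between these libraries.

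Müller cells are the main glia of the retina and reach through all of its layers. In injured mouse retina a subset of them makes the cytokine Lif, which acts through the shared receptor gp130 (Il6st) and the kinases of the Jak family on the transcription factor Stat3, and photoreceptors make the endothelin Edn2. Activated Stat3 raises Gfap, a filament protein of astrocytes and reactive Müller cells, and Socs3, which shuts the pathway off again, while Fgf2 is a survival factor for photoreceptors.

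The levels are in FPKM (fragments scaled to transcript length and library size), as the authors deposited them. Steps between low values gave depths, relative to DKO replicate 1, of 1.24 for DKO replicate 2 and 1.13 for DKO replicate 3, and of 0.956, 1.05 and 1.02 for control replicates 1, 2 and 3. Absolute read numbers are not known. The host transcripts of the named microRNA loci overlapped between the labels: Mir124a-1hg lay at 464 to 510 FPKM in DKO libraries and 420 to 528 FPKM in control libraries, and the miR-124a-2 host 2610100L16Rik at 69.9 to 98.0 FPKM in DKO libraries and 80.3 to 115 FPKM in control libraries. The rows Mir124a-1, Mir124a-2 and Mir124a-3 were listed at 0 in all 6 libraries, so they cannot show a loss. The loss named by the labels is thus not seen in these rows, and whether host rows would show it is not known. The groups are called by their labels. The tissue label was not borne out by marker genes. Sag, the arrestin of rods, lay at 2841 to 3336 FPKM in DKO libraries and at 3118 to 3594 FPKM in control libraries, while Emx1, a cortical transcription factor, was listed at 0 in all 6 and the proliferation gene Mki67 at 0.0765 to 0.262 FPKM. Markers of Müller cells were high throughout: Glul, their glutamine synthetase, measured 908, 1000 and 1070 FPKM in DKO libraries and 931, 1003 and 893 FPKM in control libraries.

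No member passed the test between the labelled groups, but 2 libraries, 1 in each group, stood above the others in several members. DKO replicate 1 was the highest of the 6 libraries in 3 of the 10 members, DKO replicate 2 in 1 (Lif) and control replicate 3 in 6. Over all 13215 rows that average 1 FPKM or more, DKO replicates 1, 2 and 3 were highest in 19.1%, 12.6% and 16.2%, and control replicates 1, 2 and 3 in 17.3%, 14.8% and 20%. Of the 7 members among these rows, DKO replicate 1 was highest in 2 and control replicate 3 in 5. DKO replicate 1 and control replicate 3 were the 2 highest libraries in Gfap, Edn2, Cebpd, Stat3, Socs3, Serpina3n and C4b, 7 of 10 members. Taken over the 6 libraries, Stat3 and Gfap had the highest mean levels (17.5 and 16.3 FPKM), then Lcn2 (5.71), Fgf2 (2.501), Cebpd (2.09), Socs3 (1.76), Serpina3n (1.57), C4b (0.673), Edn2 (0.616) and Lif (0.207). Gfap exceeded Lcn2, Lcn2 exceeded Fgf2, and Serpina3n exceeded C4b in all 6 libraries. The other neighbours changed places in at least 1 library, and Stat3 exceeded Gfap in 4 of 6.

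**Figure D1:**
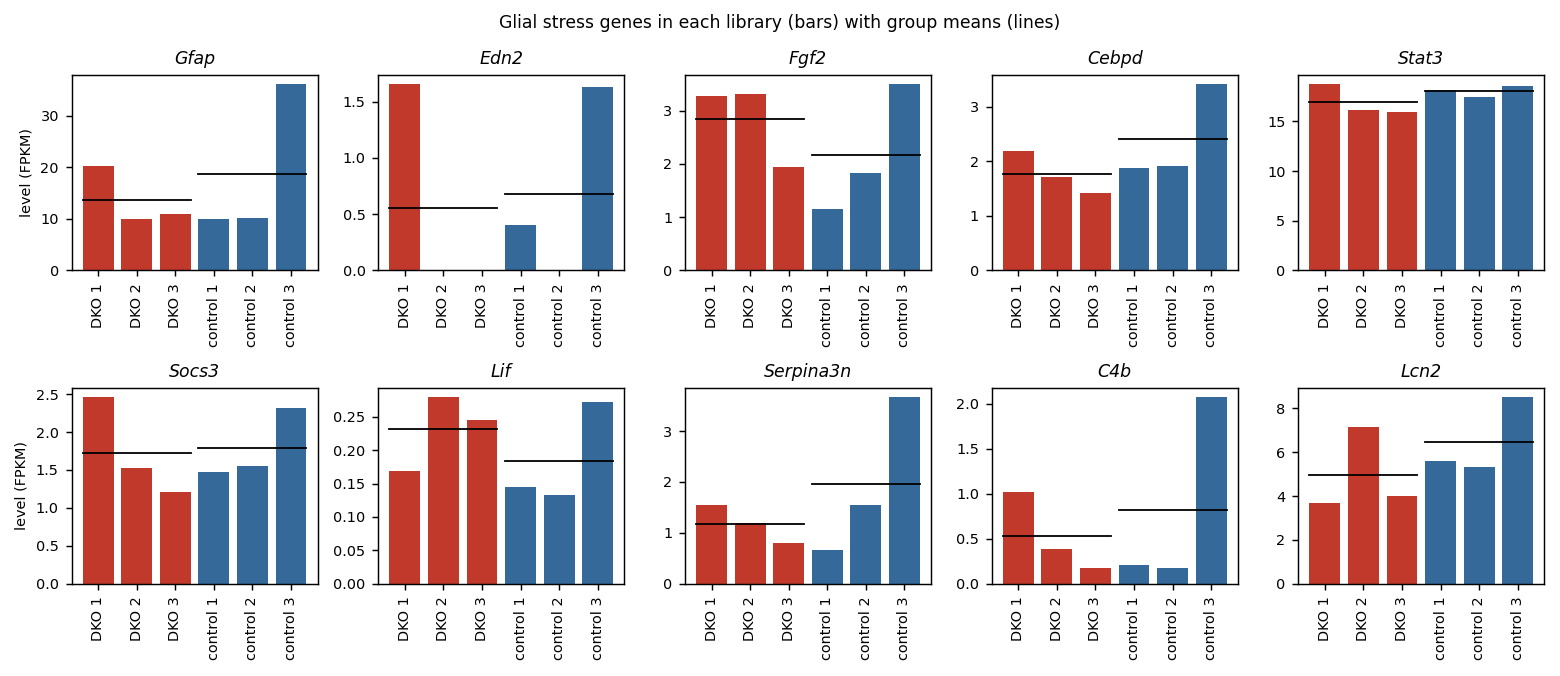
Level in FPKM of each glial stress gene (bars, 1 per library, DKO in red and control in blue; lines are the group means; each axis starts at 0 and has its own scale). DKO replicate 1 and control replicate 3 are the highest libraries for Gfap, at 20.2 and 36.2 FPKM, while Stat3 stays between 15.9 and 18.8 FPKM.

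Among the secreted signals, Edn2 showed the pattern most sharply. Edn2, the endothelin peptide of stressed photoreceptors (mm10 chromosome 4, 120161206 to 120167360), measured 1.66 FPKM in DKO replicate 1 and was listed at 0 in DKO replicates 2 and 3, against 0.401 FPKM in control replicate 1, 0 in control replicate 2 and 1.63 FPKM in control replicate 3. The 2 high libraries were of different groups and nearly equal, and 3 libraries were listed at 0. Lif (chromosome 11, 4257557 to 4272514), the gp130 cytokine that starts the response, was close to the floor everywhere, at 0.169, 0.279 and 0.245 FPKM in DKO libraries and 0.145, 0.132 and 0.272 FPKM in control libraries. Its order differed from that of Edn2, since DKO replicate 1 was below the other DKO libraries. Fgf2 (chromosome 3, 37348346 to 37410108) measured 3.28, 3.31 and 1.93 FPKM in DKO libraries and 1.14, 1.83 and 3.50 FPKM in control libraries. Here DKO replicate 2 was as high as DKO replicate 1, and the groups overlapped. Fgf2 shares its locus with Nudt6 on the opposite strand, which measured 4.84, 4.64 and 5.64 FPKM in DKO libraries and 5.70, 5.35 and 7.62 FPKM in control libraries. The kit keeps strand, but whether counting used it is not given in the sources used here, so reads of the pair may not be told apart; Cebpd and Stat3 overlap Spidr and Stat5a in the same way.

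Of the members that carry the signal into the nucleus, Stat3 itself hardly varied. Stat3 (chromosome 11, 100885098 to 100939540) measured 18.8, 16.1 and 15.9 FPKM in DKO libraries and 18.2, 17.4 and 18.5 FPKM in control libraries. Its range on the log2(FPKM + 1) scale, 0.23, was wider than that of only 35.0% of all tested rows. Socs3 (chromosome 11, 117966079 to 117970047), the feedback inhibitor that Stat3 induces, measured 2.46, 1.52 and 1.20 FPKM in DKO libraries and 1.48, 1.55 and 2.32 FPKM in control libraries. DKO replicate 1 and control replicate 3 were again the high ones, at 1.60 and 1.51 times the median of the 6 libraries. Cebpd (chromosome 16, 15887286 to 15891031), a transcription factor of the acute phase response, measured 2.18, 1.71 and 1.42 FPKM in DKO libraries and 1.88, 1.90 and 3.42 FPKM in control libraries. DKO replicate 1 was at 1.15 times the median, little above the other 4 libraries, while control replicate 3 stood apart at 1.80 times.

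The effector genes include Gfap, the member with the widest range among those tested. Gfap (chromosome 11, 102887336 to 102900912) measured 20.2, 9.94 and 11.04 FPKM in DKO libraries and 9.96, 10.3 and 36.2 FPKM in control libraries. The 4 other libraries lay between 9.94 and 11.04 FPKM, so DKO replicate 1 was 1.90 times and control replicate 3 was 3.40 times the median of the 6. The range of Gfap on the log2(FPKM + 1) scale, 1.77, was wider than that of 99.2% of all tested rows. C4b (chromosome 17, 34728380 to 34743882), a component of the classical complement cascade, measured 1.01, 0.389 and 0.179 FPKM in DKO libraries and 0.212, 0.170 and 2.07 FPKM in control libraries. Its order at the top was that of Gfap, with 3.37 and 6.89 times the median in DKO replicate 1 and control replicate 3. That median was only 0.301 FPKM, close to the floor, so these ratios are less sure than those of Gfap. The near-identical C4a, with which C4b can share reads, did not follow it, at 0.766, 0.351 and 0.700 FPKM in DKO libraries and 0.321, 0.781 and 0.528 FPKM in control libraries.

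Serpina3n (chromosome 12, 104406729 to 104414329), a secreted protease inhibitor of reactive astrocytes, measured 1.54, 1.19 and 0.807 FPKM in DKO libraries and 0.661, 1.54 and 3.67 FPKM in control libraries. Only control replicate 3 stood apart, at 2.68 times the median, and DKO replicate 1 was level with control replicate 2. The Serpina3 family has several similar copies side by side, and how the authors' counting shared reads among them is not known. Lcn2 (chromosome 2, 32384633 to 32388252), the iron-carrier protein lipocalin of inflamed tissue, measured 3.70, 7.15 and 4.003 FPKM in DKO libraries and 5.60, 5.31 and 8.51 FPKM in control libraries. Control replicate 3 was the highest here too, but DKO replicate 1 was the lowest of the 6.

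Over the whole table few rows behaved as Gfap did. Of the 13215 rows, to which 7 members belong (Edn2, Lif and C4b do not), DKO replicate 1 reached at least 1.5 times the median of the 6 libraries in 107, or 0.81%, and in 2 of the 7 members, Gfap and Socs3. Control replicate 3 did so in 137 rows, or 1.04%, and in 5 members (Gfap, Cebpd, Socs3, Serpina3n and Lcn2), while DKO replicates 2 and 3 (0.507% and 0.636% of rows) and control replicates 1 and 2 (0.764% and 0.923%) did so in 0 members. Both libraries did so in 9 rows, 0.0681% of those tested, of which Gfap and Socs3 are 2. The others were Hmox1, Lyz2, A2m, Fcrls, Akr1b8, Gm5512 and E130018N17Rik. DKO replicate 1 and control replicate 3 were the 2 highest libraries in 4.86% of tested rows and in 5 of the 7 tested members. The ratio and the choice of these libraries were made after the values were seen, each library is a single sample, and no test was made of them. The shares of all rows were not matched for level. Of the 13215 rows 10075 averaged at least 5 FPKM, but only 3 of the 7 members did (Stat3, Gfap and Lcn2). Cebpd, Socs3 and Serpina3n averaged 2.09, 1.76 and 1.57 FPKM.

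**Figure D2:**
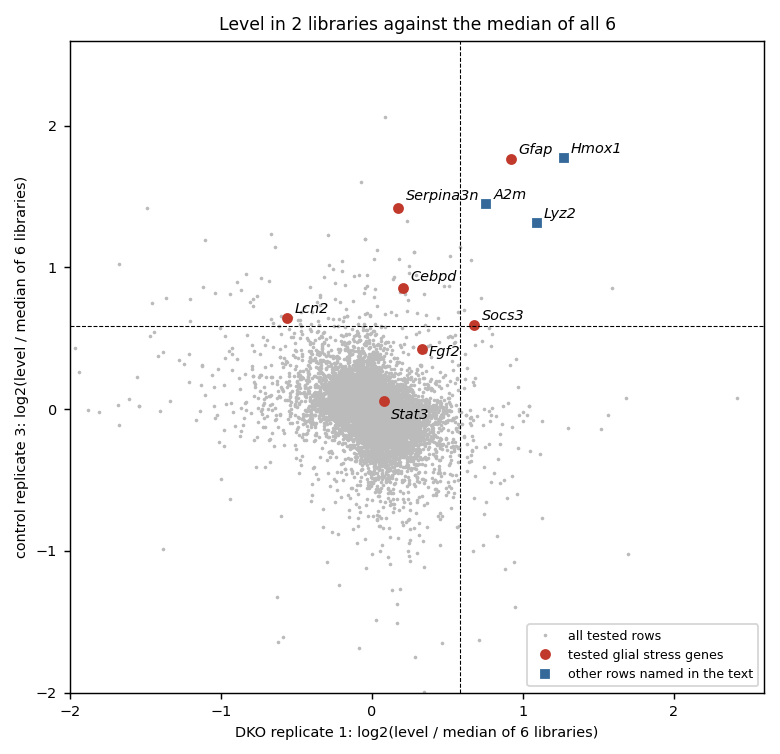
Each tested row (grey) and the 7 tested glial stress genes (red circles) by the log2 ratio of its level to the median of the 6 libraries, in DKO replicate 1 (horizontal axis) and control replicate 3 (vertical axis); dashed lines mark 1.5 times the median. Gfap and Socs3 lie past both lines with Hmox1, A2m and Lyz2 (blue squares), whereas Stat3 lies near the centre.

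The rows most like Gfap in pattern over the 6 libraries were Hmox1, A2m and Lyz2, taken by the smallest root mean square difference of centred log2(FPKM + 1) values among rows whose range is at least 0.5 of that of Gfap. Hmox1, heme oxygenase of the oxidative stress response, measured 9.07, 3.27 and 2.99 FPKM in DKO libraries and 2.12, 4.25 and 12.8 FPKM in control libraries (difference 0.26 log2 units). A2m, a secreted protease inhibitor of the acute phase, measured 2.09, 0.738 and 0.938 FPKM in DKO libraries and 1.23, 1.24 and 3.37 FPKM in control libraries (difference 0.27). Lyz2, lysozyme of macrophages, measured 5.92, 3.28 and 1.65 FPKM in DKO libraries and 2.28, 1.94 and 6.91 FPKM in control libraries (difference 0.31). All 3 had their highest values in the libraries where Gfap was highest. For Stat3, whose levels span little, the closest rows were Mycn, Cav2 and Smg8 (differences 0.018, 0.029 and 0.029 log2 units). With 6 libraries and 13215 rows close matches arise easily, and these are given as a description.

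The comparison that the design implies, DKO against control, showed no member past the threshold. With limma on log2(FPKM + 1) and Benjamini-Hochberg adjustment over all 13215 rows, 0 of the 7 tested members passed an adjusted p of 0.05, against 3 rows or 0.0227% of the whole table; an unadjusted p under 0.05 was reached by 0 of the 7, against 1041 rows or 7.88%. The groups overlapped in all 10 members, whereas 13.9% of tested rows had groups that did not overlap. The log2 fold change was below 0 in 6 of the 7 and above 0 for Fgf2, with a median of -0.24 against -0.0016 for all tested rows.

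Several intervals were wide. Gfap averaged 13.7 ± 5.64 FPKM in DKO libraries and 18.8 ± 15.1 FPKM in control libraries (SD, n = 3 each). Its log2 fold change, -0.24, had a 95% confidence interval from -1.32 to 0.84 (limma, Benjamini-Hochberg adjusted p = 0.940). Without control replicate 3 its sign turned, to a log2 fold change of 0.34, and without both high libraries it was 0.047. Serpina3n averaged 1.18 ± 0.369 FPKM in DKO libraries and 1.96 ± 1.54 FPKM in control libraries (SD, n = 3 each), with -0.32 and an interval of -1.11 to 0.47, and turned to 0.071 without control replicate 3. Socs3 had -0.04 (interval -0.50 to 0.41), and its sign turned without DKO replicate 2, DKO replicate 3 or control replicate 3 (0.0011, 0.099 and 0.091). Stat3 had the narrowest interval of the 7 tested members: 16.9 ± 1.60 FPKM in DKO libraries and 18.0 ± 0.574 FPKM in control libraries (SD, n = 3 each), or -0.09 on the log2 scale with an interval of -0.26 to 0.08.

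The remaining tested members kept their sign without each library in turn, but their sizes moved. On the log2 scale, Fgf2 lay between 0.084 (without control replicate 1) and 0.62 (without control replicate 3), Cebpd between -0.38 (without control replicate 1) and -0.071 (without control replicate 3), Lcn2 between -0.60 (without DKO replicate 2) and -0.16 (without control replicate 3), and Stat3 between -0.16 (without DKO replicate 1) and -0.049 (without DKO replicate 3). With all libraries, Fgf2 had 0.33 (interval -0.30 to 0.96), Cebpd -0.27 (-0.72 to 0.17) and Lcn2 -0.35 (-0.89 to 0.19), with limma adjusted p-values of 0.770 to 0.972 over the 7 members (Benjamini-Hochberg). Without a filter on low values, Edn2 had a log2 fold change of -0.16 (interval -1.27 to 0.95), C4b -0.13 (-1.05 to 0.78) and Lif 0.06 (-0.11 to 0.23), and 0 of the 3 passed. Differences of low genes are understated on this scale.

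**Figure D3:**
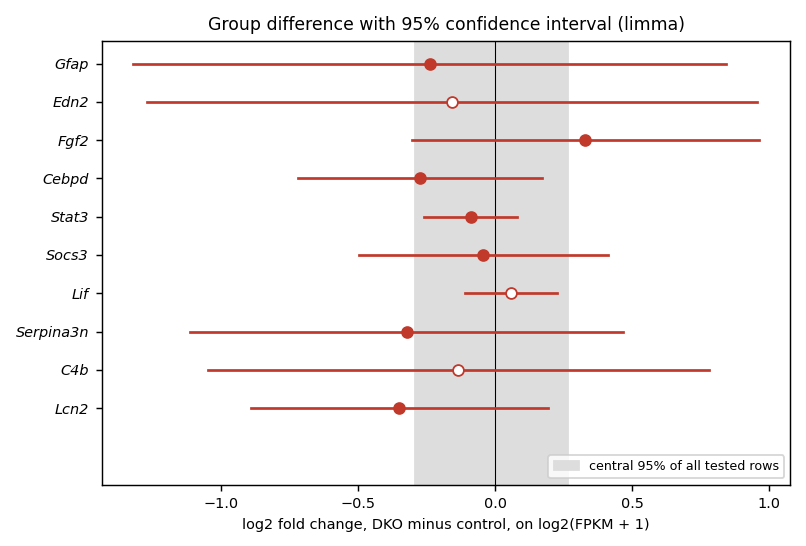
Log2 fold change of each glial stress gene, DKO minus control on log2(FPKM + 1), with the 95% confidence interval from limma (filled circles from the fit of 13215 rows, open circles from the fit without a filter); the grey band holds the central 95% of all tested rows, -0.29 to 0.27. Every interval includes 0, and those of Gfap and Edn2 are the widest.

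Pathway partners of these genes did not pass the test either. Of 118 genes in 8 lists of the gp130, Stat, C/EBP, FGF, endothelin, complement and reactive glia pathways, 83 were tested and 0 passed (lowest limma adjusted p = 0.530, Benjamini-Hochberg). Their median log2 fold change was -0.016, with 38 on the higher and 45 on the lower side. An unadjusted p under 0.05 was reached by 6 of the 83, or 7.23%, near the 7.88% of all rows. DKO replicate 1 reached 1.5 times the median in 4 of the 83 (Gadd45g, Hmox1, Spry4 and A2m) and control replicate 3 in 6 (Gadd45b, Hmox1, Mt2, C1qb, A2m and Lgals3), against 0 or 1 in each of the other libraries. These are 4.82% and 7.23% of the 83, beside 0.81% and 1.04% of all tested rows, again not matched for level. Only Hmox1 and A2m reached it in both libraries.

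Upstream of Stat3, ligands and receptors showed little spread. Il6, the founding cytokine of the family, was listed at 0 in all 6 libraries, and Cntf, a ciliary neurotrophic factor that also signals through gp130, measured 4.39 ± 0.923 FPKM in DKO libraries and 4.53 ± 0.724 FPKM in control libraries (SD, n = 3 each). Clcf1, another ligand of this kind, had a log2 fold change of -0.14. Il6st, the gp130 chain, measured 20.0 ± 0.750 FPKM in DKO libraries and 18.5 ± 1.14 FPKM in control libraries (SD, n = 3 each), and Lifr, its partner for Lif, 13.8 ± 0.755 FPKM in DKO libraries and 13.7 ± 0.680 FPKM in control libraries (SD, n = 3 each). The kinase Jak1 lay at 36.6 to 38.5 FPKM and Jak2 at 11.3 to 13.0 FPKM over the 6 libraries. Of the 8 tested receptors and kinases 0 passed and 6 were above 0, with Tyk2, another Jak kinase, at 6.79 ± 0.342 FPKM in DKO libraries and 5.68 ± 0.368 FPKM in control libraries (SD, n = 3 each; adjusted p = 0.590, limma with Benjamini-Hochberg). The oncostatin receptor Osmr was low, at 1.28 to 1.82 FPKM, and highest in control replicate 3.

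Among Stat factors and inhibitors 0 of 17 tested genes passed and 12 were above 0. Socs6 had a log2 fold change of 0.24 and Socs2 of -0.14, and the abundant Pias3, an inhibitor of Stat3, lay at 79.9 to 86.1 FPKM. In the list of C/EBP and acute stress factors 0 of 14 passed, 5 above 0 and 9 below. Atf3, a stress-induced factor that rises after axon injury, had -0.35 and was highest in control replicate 2 (2.07 FPKM), not in the libraries where Gfap was high. Gadd45a had -0.23, while Ddit3, a factor of endoplasmic reticulum stress, lay at 43.0 to 48.6 FPKM. The metallothionein Mt2 measured 25.0, 28.6 and 32.0 FPKM in DKO libraries and 22.9, 28.0 and 51.9 FPKM in control libraries, so that control replicate 3 alone stood apart. In Mt1, the more abundant metallothionein, control replicate 3 was also highest, at 70.3 FPKM, but only 1.14 times the median.

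In the FGF list 0 of 13 tested genes passed and 6 were above 0: the receptor Fgfr1 measured 7.92 ± 0.224 FPKM in DKO libraries and 8.52 ± 0.290 FPKM in control libraries (SD, n = 3 each; log2 fold change -0.09), Etv4, a target of FGF signalling, had -0.30, and the feedback inhibitor Spry2 lay at 44.2 to 50.1 FPKM. In the endothelin list 0 of 5 passed and 2 were above 0. The receptor Ednrb, through which endothelins act on glia, measured 2.52, 2.31 and 2.57 FPKM in DKO libraries and 2.22, 2.25 and 3.11 FPKM in control libraries, highest in control replicate 3, and the log2 fold changes of Edn1 and of the converting enzyme Ece1 were 0.20 and 0.13. In the complement list 0 of 7 passed and 2 were above 0. C1qb, which microglia make, measured 7.13, 6.89 and 9.18 FPKM in DKO libraries and 5.19, 7.56 and 13.3 FPKM in control libraries. Control replicate 3 was highest in C1qb, C1qa and C1qc, at 1.81, 1.46 and 1.13 times the median. Cd59a, which blocks the terminal complex, had a log2 fold change of -0.29.

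Of 20 tested reactive glia genes 0 passed, 6 above 0 and 14 below, with a median of -0.10. Vim, the filament protein that partners Gfap, measured 116, 113 and 103 FPKM in DKO libraries and 121, 125 and 140 FPKM in control libraries, with no overlap between groups (log2 fold change -0.21, adjusted p = 0.530 in limma after Benjamini-Hochberg). DKO replicate 1, where Gfap was high, was not high in Vim. S100a10 lay at 33.2 to 34.9 FPKM in DKO libraries and 35.2 to 41.0 FPKM in control libraries, and the class I antigen gene H2-D1 had -0.21. The chemokine Ccl2 was listed at 0 in all 6 libraries.

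**Figure D4:**
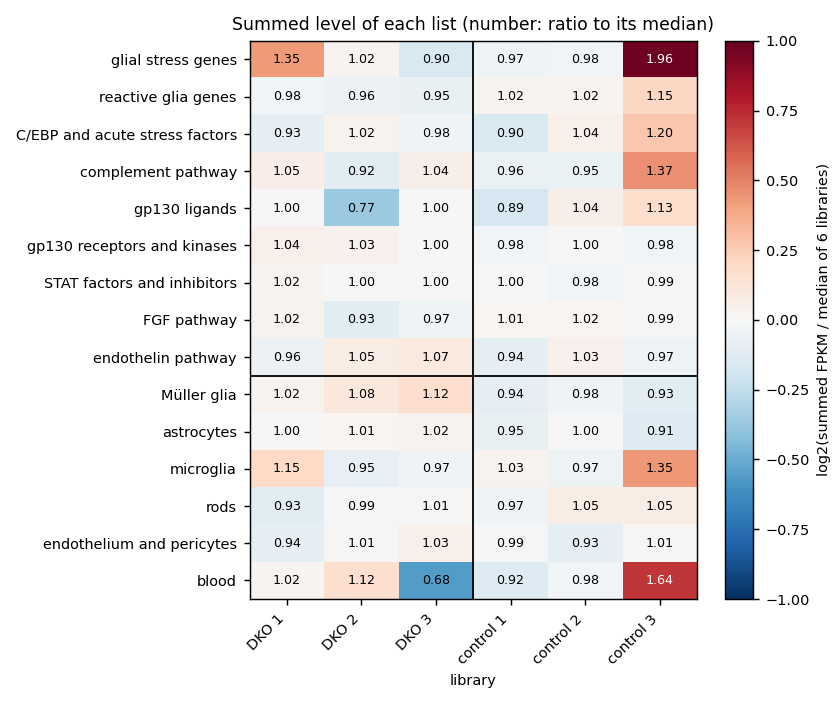
Summed FPKM of gene lists in each library, as the ratio to the list's median over the 6 libraries (numbers, with colour on a log2 scale). The glial stress genes are at the top, pathway lists under them and cell type marker lists below the line. Lists of lens, retinal pigment epithelium, embryonic cortex and dividing cells are not drawn. The last, all near the floor, reached 1.22 in DKO replicate 1 and 1.96 in control replicate 3. The glial stress genes reach 1.35 in DKO replicate 1 and 1.96 in control replicate 3, where the microglia list reaches 1.15 and 1.35; the Müller list includes Dkk3, which was higher in DKO libraries.

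Some marker lists of other cell types had their highest sums in the same libraries, though not all of their genes did. The summed level of the 8 microglia markers was 0.945 to 1.15 times its median in DKO libraries and 0.965 to 1.35 times in control libraries, highest in control replicate 3, with DKO replicate 1 second. None of the 8 was at 0 in every library. Of its members Csf1r measured 6.32, 5.10 and 5.36 FPKM in DKO libraries and 5.18, 4.43 and 5.94 FPKM in control libraries, and Cx3cr1 2.93, 3.21 and 2.89 FPKM in DKO libraries and 2.91, 2.63 and 3.33 FPKM in control libraries. P2ry12 measured 2.29, 2.499 and 2.84 FPKM in DKO libraries and 3.30, 2.25 and 4.02 FPKM in control libraries, so that DKO replicate 1 was the lowest DKO library here. Aif1 was highest in control replicate 2, with 0.994, 0.643 and 1.06 FPKM in DKO libraries and 0.624, 2.47 and 2.35 FPKM in control libraries. Their part in the result was not tested. The hemoglobin gene Hba-a1 measured 18.2, 20.0 and 12.1 FPKM in DKO libraries and 15.9, 17.4 and 29.6 FPKM in control libraries, highest in control replicate 3. The 5 genes of dividing cells, all near the floor, summed to 1.60, 1.03 and 1.40 FPKM in DKO libraries and 1.21, 1.23 and 2.57 FPKM in control libraries, again with the same 2 libraries on top. Their part in the result was not tested either. The lens genes were highest in control replicate 2, with sums of 33.4, 18.7 and 27.1 FPKM in DKO libraries and 31.9, 181 and 65.3 FPKM in control libraries.

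Müller cell markers stayed near their medians in the libraries where Gfap was high. Without Dkk3, which was higher in DKO libraries past the threshold, the sum of 9 Müller markers lay between 0.968 and 1.07 times its median in all 6 libraries, 0.980 in DKO replicate 1 and 0.968 in control replicate 3. Of these 9 genes 0 reached 1.5 times the median in any library. The summed level of 6 astrocyte markers, some of which Müller cells share, was 0.9996 to 1.02 times its median in DKO libraries and 0.914 to 1.0004 times in control libraries. Aldoc, an enzyme of glycolysis, measured 141, 147 and 147 FPKM in DKO libraries and 141, 152 and 135 FPKM in control libraries. The glutamate transporter Slc1a2 measured 59.2, 56.1 and 58.2 FPKM in DKO libraries and 47.5, 45.5 and 45.5 FPKM in control libraries, with no overlap between groups but an adjusted p of 0.142 (limma, Benjamini-Hochberg). The calcium-binding protein gene S100b lay at 6.36 to 7.70 FPKM in DKO libraries and 7.41 to 8.86 FPKM in control libraries, and Aldh1l1 at 5.58 to 6.09 FPKM in DKO libraries and 6.47 to 6.90 FPKM in control libraries, highest in control replicate 3 and also with no overlap (adjusted p = 0.641, same test). Pax2, a factor of retinal astrocytes, measured 1.07, 0.642 and 0.661 FPKM in DKO libraries and 0.587, 0.849 and 0.460 FPKM in control libraries, so that it was highest in DKO replicate 1, at 1.65 times the median, and lowest in control replicate 3. Gjb6 was listed at 0 in all 6 libraries. In such bulk samples more cells of a type and more RNA per cell cannot be told apart. Control replicate 3 further held the largest share of short RNA rows, 6.36% of its summed FPKM against 1.76% to 3.13% in the other libraries, led by Mir8104, while median-of-ratios factors were within 0.9999 and 1.002 for all 6.

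Since Gfap and Socs3 are known to be raised by Stat3, the promoters of the members were searched for the Stat motif TTCNNNGAA, which reads the same on both strands, and for the C/EBP motif TTGCNNAA on both strands. RefSeq promoters (GRCm38.p6, 250 bases before to 50 after the start) were matched by symbol for 8 members, without Cebpd and C4b. The Stat motif was found in 2 of the 8, Gfap and Socs3, and in 8.30% of all 32851 promoters. The C/EBP motif was found in 1 of the 8, Lcn2, and in 10.8% of all promoters. The windows are shown to give the matches found. Gfap and Socs3 were high in both DKO replicate 1 and control replicate 3, as were the low genes Edn2 and C4b. The promoter of Edn2 was searched and holds neither motif, and that of C4b was not searched. Whether the motifs bear on these levels was not tested. Capitals mark the motif, and each is read on the strand of its gene, which is the minus strand for all 3. The start is that of the RefSeq promoter. It differs from the gene bounds given above, which come from GENCODE, and all 3 windows lie inside those bounds.
Gfap (chr11:102897184-102897212, motif from 2 bases before the start): atgggggtgcTTCCAGGAAgtcaggggca
Socs3 (chr11:117969502-117969530, motif from 154 bases before the start): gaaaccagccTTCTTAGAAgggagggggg
Lcn2 (chr2:32387938-32387965, motif from 216 bases before the start): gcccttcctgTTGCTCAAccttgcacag
A match describes letters only, and the absence of a match in the other promoters concerns this window alone.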

How the data were processed

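Total RNA of 6 samples was made into TruSeq stranded mRNA libraries, per the labels' protocols. Values are in FPKM as the authors deposited them, 1 file per library, per the file headers. The submitters' processing notes list TopHat2 2.1.1, Bowtie2, Cuffdiff 2.2.1 and build mm10. How the authors annotated, filtered or scaled is not given in the sources used here. Members and gene lists were chosen with earlier results of these data known. Groups follow the sample titles.

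Rows averaging at least 1 FPKM were fitted as DKO minus control in limma 3.58.1 (R 4.3.3) on log2(FPKM + 1) values, using eBayes with a trend, with Benjamini-Hochberg adjustment and a threshold of 0.05. The fit was tested on simulated data with 200 changed rows. It recovered 65.7%, 91.0% and 95.5% of changes of 0.5, 1 and 2 log2 units, and 6.1% of its calls were false. Smaller changes were not simulated. All members were named; of each pathway list the 2 highest genes and the 2 of smallest p, 7 receptors and kinases in any case, up to 3 genes per marker list, and rows most alike in pattern. Some of these are summarised by list. Others, such as Mt2, C4a, Il6 and the rows high in both libraries, were named after their values were seen. The median of the 6 libraries served to describe single libraries. Gene coordinates are from GENCODE M21 (GRCm38, the assembly of mm10), and promoter windows are placed by RefSeq starts. Alternatives were other pseudocounts (0.1, 0.5), filters, scalings, eBayes settings, the replicate block, and libraries left out. Python 3.11.15 with pandas 2.3.3 was used for the tables.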

Additional observations from a re-analysis of the deposited data

How the results depend on the processing

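With 3 libraries a group, the intervals of Gfap, Edn2, Fgf2, Serpina3n, C4b and Lcn2 each span more than 1 log2 unit. The count of members called was 0 in all 16 alternatives, as was that of pathway genes (limma, Benjamini-Hochberg). The count of all rows called, 3, was 1 without a trend in eBayes, 1 to 4 when single libraries were left out (1 without control replicate 2) and 9 without both DKO replicate 1 and control replicate 3, an alternative chosen after the values were seen; the cause was not tested. With replicate number as a block it was 2, with 0 members called. With that block 1271 rows had an unadjusted p under 0.05 (limma), against 1041 without it. Libraries of the same number had deviations correlated by 0.072, 0.0063 and 0.10, against -0.12 to 0.036 for different numbers. The numbers were not taken to pair the libraries, and these values do not settle whether they do. Without single libraries Gfap lay between -0.54 and 0.34 (positive without control replicate 3), Socs3 between -0.23 and 0.099 (positive without DKO replicate 2, at 0.0011, DKO replicate 3 or control replicate 3, at 0.091), Serpina3n between -0.67 and 0.071 (positive without control replicate 3), Cntf between -0.12 and 0.11 (positive without DKO replicate 2, and at 0.059 without control replicate 3) and Clcf1 between -0.27 and -0.045. Without both high libraries Gfap was 0.047 and Clcf1 0.035. Of the 108 values of the 7 tested members under alternatives, 102 kept their sign and missed the threshold, as did 248 of 251 values of 16 named pathway genes.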
